A study of Drosophila melanogaster with 12 samples.

Results

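Mob2 and its relatives are small adaptor proteins, some of which bind and activate kinases of the NDR family. The set described here comprises 7 genes of the Mob family and the NDR kinase pathway out of 11979 named genes on the arrays. The genes are the Mob family genes Mob2, mats, Mob3 and Mob4, the kinase genes trc (tricornered) and wts (warts), and furry (fry), which encodes a large scaffold protein of trc. They were chosen by gene symbol, with the fall of Mob2 in the prospero mutant already known, so their differences between the groups are given as descriptions, with no p-value, and the count of those past the threshold is read as no support. Each gene had 1 probe and a ratio on all 12 arrays, and all 7 passed the filter on missing values.

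The arrays compared pools of 50 to 100 neuroblasts and of their daughters, the ganglion mother cells, from the ventral nerve cord of stage 11 Drosophila melanogaster embryos with a common reference, cDNA of whole w1118 embryos of stages 10 to 12. In the group called wildtype (6 arrays) the animals carried pros17 over the balancer chromosome TM3-KrGFP, so both groups carried the mutant allele, and in the mutant (6 arrays) they were pros17/pros17. Cell cDNA was labelled with Cy3 for replicates 1 to 3 and with Cy5 for replicates 4 to 6 of either group. Nothing in the labels says whether samples came from separate embryos, so the spread behind each p-value is that of these samples and may be technical.

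In the fly, the proteins encoded by Mob2 and mats sit on the amino-terminal part of NDR kinases and help to switch them on. Tricornered, with Furry and Mob2, shapes wing hairs and keeps the dendrites of sensory neurons branching without crossing. Warts, with the Mob1 protein encoded by mats, is the last kinase of the Hippo pathway and restrains the growth-promoting coactivator Yorkie. Mob4 belongs to the STRIPAK phosphatase complex, which opposes Hippo kinase.

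Values are log2 ratios of cells over reference, where 1 unit is a factor of 2, and a difference is mutant less wildtype on that scale, fitted with dye as a term. The base of the logarithm is not stated in the labels, and 2 is assumed here. No label states which way the ratio runs. Cells over reference is taken as the likely reading from marker genes, which do not all point that way. Averaged over the groups, the neuroblast genes dpn (3.003) and wor (2.22) and the neuronal gene elav (2.503) lay above 0, and the dorsal epidermal gene pnr (-3.03) below. The neuronal gene nSyb (-1.14) and the glial gene repo (-0.97) also lay below, through their mutant arrays. Their means were 0.90 and 0.06 in wildtype and -3.19 and -1.99 in the mutant. The neuroblast gene mira (0.28) did not pass (limma adjusted p = 0.205). In limma, 3 of 7 neuroblast and 3 of 6 neuronal markers lay above 0 and 1 and 2 below, while 2 of 2 epidermal markers lay below and 4 of 6 hemocyte markers above. Of 5 glial markers 3 lay above and 2 below. The gene grh (-0.88) is in both the neuroblast and the epidermal list and is counted below 0 in each. Arrays of opposite dye orientation correlated at 0.515 to 0.838 over probes, so ratios had been turned to 1 direction before deposit. Each array gave 8421 to 10030 ratios. The prospero transcript (pros) ran from 0.88 to 3.29 in wildtype and from -3.95 to -2.13 in the mutant, with no overlap. Read as cells over reference, the mutant cells held less transcript of the mutated gene, and on the opposite reading they would hold more. In limma, 4 of 7 neuroblast, 1 of 6 hemocyte and 1 of 2 epidermal markers rose in the mutant (1.58% of all rows rose), while 3 of 6 neuronal, 1 of 5 glial and 1 of 3 mesodermal markers fell (3.37% of all rows fell). The median neuronal marker lay between -0.07 and 2.66 on wildtype arrays and between -1.88 and 0.40 on mutant arrays, and for glial markers these ranges were 0.01 to 1.13 and -0.91 to 0.58.

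Mob2 was near the level of the reference in wildtype cells and far below it in mutant cells. Its ratio had a lowest value of -0.31, a median of 0.19 and a highest value of 0.93 in wildtype, against -2.66, -2.10 and -1.62 in the mutant. Every mutant array lay below every wildtype array, and the nearest arrays of the groups were 1.31 apart. The group means of 0.22 ± 0.50 for wildtype and -2.10 ± 0.40 for the mutant (SD, n = 6 each) differed by -2.32 (SE 0.23), which is 4.996-fold. In size this difference ranked 208th of the 8165 rows tested, and 2.54% of rows had a larger one. On the mutant arrays Mob2 stood between the 5.75th and 17.4th percentile of all ratios of the array, and on the wildtype arrays between the 34.9th and 64.5th. In these bulk samples fewer cells that make a transcript and less transcript per cell cannot be told apart. Along with Mob2, 3 of 6 neuronal, 1 of 5 glial and 1 of 3 mesodermal markers fell, where 3.37% of all rows fell. The part of these cell types in the fall of Mob2 was not tested.

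The fall of Mob2 was of similar size in both dye orientations. On the Cy3 arrays the mean was 0.44 for wildtype and -1.78 for the mutant, and on the Cy5 arrays it was 0.002 and -2.42. The differences were -2.22 and -2.42. The difference between them, -0.20 (SE 0.47), did not pass (limma adjusted p = 0.877 for the interaction of group and dye).

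**Figure D1:**
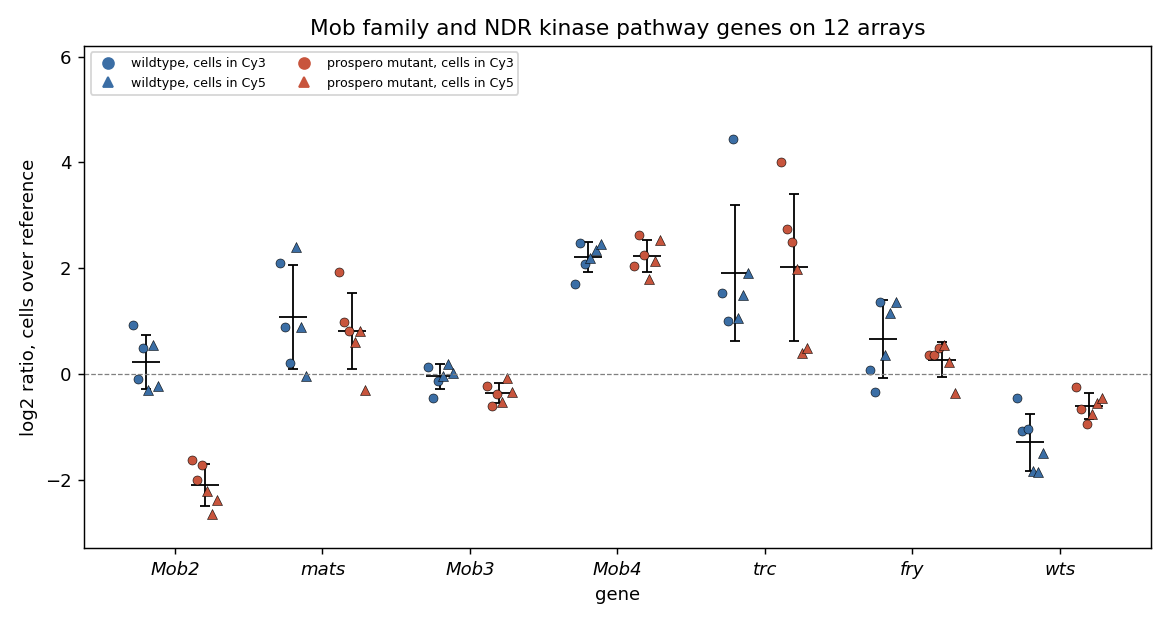
Log2 ratio of cells over reference (vertical axis) for the 7 genes (horizontal axis) on each of the 12 arrays, blue for wildtype and red for the prospero mutant, circles for cells in Cy3 and triangles for cells in Cy5; black marks are group means and bars are SDs (n = 6 each). Mob2 is the gene whose groups do not overlap, with mutant values from -2.66 to -1.62 and wildtype values from -0.31 to 0.93.

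Of the 7 genes, Mob2 passed the threshold for a lower level in the mutant (adjusted p under 0.05 over all rows in limma), where 3.37% of all rows did so. For a higher level 0 passed, where 1.58% of all rows did. At an unadjusted p under 0.05 in limma 1 of the 7 was higher, where 9.69% of all rows were. Mob2 was also the 1 gene of the 7 whose groups did not overlap, as in 3.48% of all rows (2.52% with the mutant lower and 0.955% with the mutant higher). Since Mob2 was chosen with this contrast known, these counts support nothing. The differences of the other 6 genes ran from -0.39 to 0.69. The median over the 7 was -0.26, beside -0.13 over all rows.

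The kinase gene trc, whose product Mob2 binds, had more transcript in the cells than in the reference in both groups. Its ratio had a lowest value of 1.01, a median of 1.503 and a highest value of 4.44 in wildtype, and values of 0.39, 2.24 and 4.001 in the mutant. The groups overlapped over nearly their whole range. The means were 1.90 ± 1.29 and 2.02 ± 1.39 (SD, n = 6 each), a difference of 0.11 (SE 0.59). It was the most variable of the 7 genes, with a spread within groups (SD 1.34) larger than that of 87.9% of rows. Wildtype replicate 3, at 4.44, stood apart from the other wildtype arrays, the next being at 1.91, and without it the difference was 0.51. Without other single arrays it fell on either side of 0, down to -0.25 without wildtype replicate 2.

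The scaffold gene fry lay slightly above the reference. Its ratio ran from -0.35 to 1.36 in wildtype, with a median of 0.76, and from -0.36 to 0.54 in the mutant, with a median of 0.35. The mutant range lay almost wholly inside the wildtype range. The difference was -0.39 (SE 0.33), with 0.04 for cells in Cy3 and -0.82 for cells in Cy5. Without mutant replicate 6, the lowest array, it was -0.23, without wildtype replicate 3 it was -0.22, and without wildtype replicate 2 it was -0.59.

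The kinase gene wts was the lowest of the 7 on all 6 wildtype arrays, and Mob2 was the lowest on all 6 mutant arrays. These are ratios against the same reference, and their order within an array does not depend on a shift of the whole array. Within each array wts stood between the 12.8th and 28.9th percentile of all ratios in wildtype and between the 26.2nd and 41.8th in the mutant. Its ratio had a lowest value of -1.85, a median of -1.29 and a highest value of -0.45 in wildtype, against -0.95, -0.61 and -0.24 in the mutant. The groups overlapped through wildtype replicate 1 (-0.45), while the other 5 wildtype arrays lay at -1.05 or below, under every mutant array. The means were -1.30 ± 0.54 and -0.61 ± 0.24 (SD, n = 6 each), a difference of 0.69 (SE 0.23). On Cy3 arrays the difference was 0.24, and on Cy5 arrays 1.14. Their difference, 0.90 (SE 0.39), had an unadjusted p of 0.0432 and did not pass (limma adjusted p = 0.298).

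The gene mats, which encodes the Mob1 coactivator of Warts, ran from -0.04 to 2.39 in wildtype (median 0.88) and from -0.31 to 1.92 in the mutant (median 0.81). The groups overlapped over most of this range. The difference was -0.26 (SE 0.46), with 0.18 in Cy3 and -0.71 in Cy5, and it ran from -0.50 without wildtype replicate 3 to 0.08 without wildtype replicate 4.

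Mob4, the STRIPAK subunit gene, was high and even on all 12 arrays. It ran from 1.70 to 2.47 in wildtype (median 2.27) and from 1.80 to 2.62 in the mutant (median 2.18), so the ranges lay almost on top of each other. Within each array it stood between the 79.9th and 93.8th percentile of all ratios in wildtype and between the 87.7th and 96.7th in the mutant. The means were 2.21 ± 0.29 and 2.23 ± 0.31 (SD, n = 6 each), a difference of 0.02 (SE 0.21; -0.09 to 0.12 without single arrays). Mob3, a further Mob family gene, lay close to the reference, from -0.47 to 0.18 in wildtype (median -0.01) and from -0.60 to -0.07 in the mutant (median -0.36). Its difference was -0.31 (SE 0.17) between overlapping groups. These were the least variable of the 7 genes, with SDs within groups of 0.21 for Mob3 and 0.30 for Mob4, beside a median of 0.65 over all rows.

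**Figure D2:**
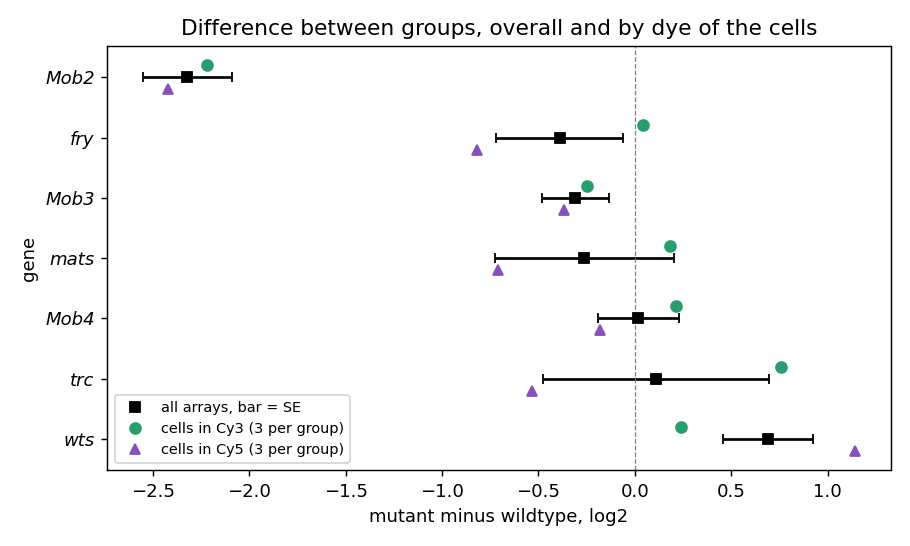
Difference between groups (horizontal axis, mutant minus wildtype, log2) for the 7 genes (vertical axis); black squares are all arrays with the SE, green circles the cells in Cy3 and purple triangles the cells in Cy5 (3 arrays per group each). Mob2 lies near -2.32 in both orientations, whereas fry, mats, Mob4 and trc lie on opposite sides of 0 in the 2 orientations.

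The sign of the difference was opposite in Cy3 and Cy5 for 4 of the 7 genes, namely mats, Mob4, trc and fry, and equal for Mob2, Mob3 and wts. In limma, 0 of the 7 genes passed for an interaction of group and dye (1 at an unadjusted p under 0.05, wts), where 0.416% of all rows passed and 15.7% had such a p. For the dye itself, which follows the replicate number so that dye and any batch of replicates cannot be told apart, 0 of 7 passed (2 at an unadjusted p under 0.05), where 11.0% of all rows passed and 30.1% had such a p. The 2 were trc, with a difference of Cy5 minus Cy3 of -1.48 (SE 0.59, limma adjusted p = 0.118), and Mob2, with -0.54 (SE 0.23, limma adjusted p = 0.142).

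Because the scaling of the arrays is not known, Mob2 was also read relative to each partner on the same array, where a shift of the whole array cancels. Relative to trc, its kinase partner, Mob2 averaged -1.68 ± 1.22 on wildtype arrays and -4.12 ± 1.03 on mutant arrays (SD, n = 6 each). The groups overlapped, since wildtype replicate 3 stood at -3.95 and the highest mutant array at -2.88. Relative to Mob4, it averaged -1.99 ± 0.74 and -4.33 ± 0.51, with no overlap. Relative to wts, it was above the kinase gene in wildtype (1.52 ± 0.48) and below it in the mutant (-1.50 ± 0.48). Relative to fry, mats and Mob3 the differences were -1.93, -2.06 and -2.01. Only the mats and trc comparisons had overlapping groups, in each through 1 wildtype array (for mats, -2.71 beside a highest mutant value of -2.08).

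**Figure D3:**
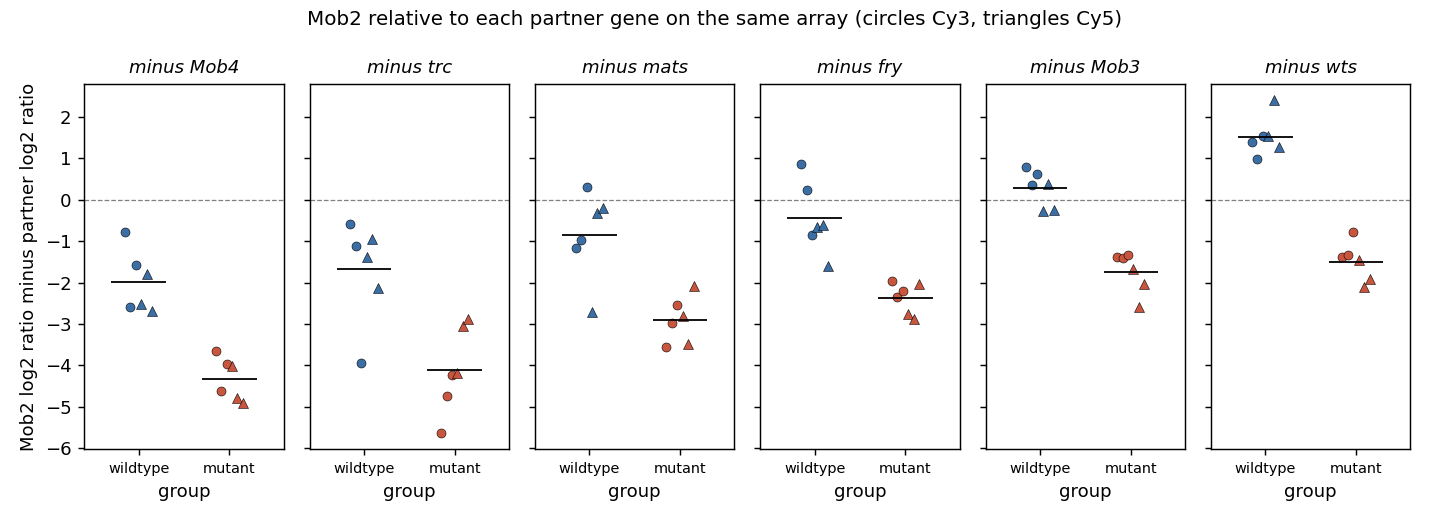
Log2 ratio of Mob2 minus that of each partner gene on the same array (vertical axis), by group (horizontal axis), with circles for cells in Cy3, triangles for cells in Cy5 and lines for group means. In all 6 panels the mutant mean lies below the wildtype mean, with differences from -3.01 for wts to -1.93 for fry.

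The level of each gene in the cells against the whole embryo, averaged over both groups, was tested for the 6 genes other than Mob2, whose low mutant values led to its choice and enter its average. All 6 passed in limma, 4 above the reference and 2 below, where 78.1% of all rows passed (41.0% above and 37.1% below), so passing did not set these genes apart. Mob4 stood highest at 2.22 (SE 0.11, limma adjusted p = 6.23e-09), above 0 on 12 of 12 arrays, and 5.19% of rows stood higher. Then came trc at 1.96 (SE 0.29, limma adjusted p = 6.68e-05), also above 0 on all 12 arrays, and the gap between these neighbours was smaller than the spread of trc. The next, mats, was at 0.93 (SE 0.23, limma adjusted p = 0.00292), and fry at 0.46 (SE 0.16, limma adjusted p = 0.0221), each above 0 on 10 of 12 arrays. They differed by less than the spread of mats.

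Mob3 followed at -0.21 (SE 0.09, limma adjusted p = 0.0455), below 0 on 9 of 12 arrays. Its adjusted p ran from 0.00369 to 0.403 over the alternatives, and that of fry from 0.00527 to 0.178. The calls of mats and fry were lost in 1 and 4 of the 23 alternatives and that of Mob3 in 13. The lowest of the 6 was wts at -0.95 (SE 0.12, limma adjusted p = 1.24e-05), below 0 on 12 of 12 arrays. Mob2 averaged -0.94 (SE 0.12), a description of 2 unlike groups, and its wildtype arrays lay on both sides of 0.

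Of the 7 genes, Mob2, trc and fry lie on chromosome arm 3L, mats and wts on 3R, Mob3 on 2L and Mob4 on 2R, in the RefSeq table (Release 6). The control animals had a balancer in place of 1 copy of chromosome 3, where 5 of the 7 genes lie. The effects of background and of pros17 therefore cannot be told apart for any of the 7, whether located there or not. On 3L, 4.17% of tested genes were lower in the mutant, beside 3.36% on 3R, 3.69% on 2R, 2.64% on 2L and 2.40% on X. Of the 10 tested genes nearest to Mob2, 5 on each side in gene order (chosen after the values of Mob2 were seen), 1 passed in limma, a fall. That gene was the direct neighbour CG7512, at -1.35 (SE 0.33, limma adjusted p = 0.0462, with a range from 0.0375 to 0.264 over the alternatives, in 19 of 22 of which the call was lost). The other 9 ran from -2.55 to 0.30, and 9 of the 10 had a difference below 0, as had 4845 of all 8165 rows. The lowest, CG7573, had an SE of 0.97 (limma adjusted p = 0.133).

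Genes that work with these kinases and adaptors were listed by function, with earlier results of these data known, among them the rise of CycE. Of 50 listed, 28 could be tested, of which 2 rose (rictor and CycE), 0 fell and 26 did not pass in limma, where 4.95% of all rows passed in either direction. Since the rise of CycE was known, its place in these counts supports nothing. At an unadjusted p under 0.05 the numbers were 9 higher and 1 lower, where 9.69% of all rows were higher and 16.2% lower. The median difference was 0.24, beside -0.13 over all rows. After each array was centred on its median, that of all rows was 0.08, which is not on the scale of the uncentred 0.24. Of the 28 differences 19 lay above 0, while 4845 of all 8165 rows lay below 0. The 1 gene of the 28 with a larger difference than Mob2 was CycE, of the opposite sign.

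Among the wing hair, dendrite and TORC2 genes, 1 of 6 rose. This was rictor, which encodes a subunit of the TORC2 kinase complex that acts with trc in dendrite tiling. It ran from -0.58 to 0.27 in wildtype and from 0.71 to 1.05 in the mutant, with no overlap. It rose by 0.89 (SE 0.20, limma adjusted p = 0.0289), from -0.06 ± 0.35 to 0.83 ± 0.15 (SD, n = 6 each). The call was lost in 8 of 23 alternatives, namely the replicate block (0.89, limma adjusted p = 0.0740), each dye orientation alone (0.76 in Cy3 and 1.03 in Cy5, with limma adjusted p = 0.328 and 0.105) and the omission of wildtype replicate 5 or 6 or mutant replicate 1, 4 or 6. In Cy3 alone, 2 of all 7863 rows passed lower and 0 higher. The planar polarity genes in (inturned) and frtz (fritz), which position wing hairs, had differences of 1.37 and 0.88 (limma adjusted p = 0.111 and 0.141).

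Of 9 tested genes of the Hippo core, 0 passed in limma (2 at an unadjusted p under 0.05), with a median difference of 0.07. The first of these 2 was hpo, the Hippo kinase gene that acts upstream of wts, at 1.98 ± 0.50 on 4 wildtype arrays and 0.84 ± 0.53 on 5 mutant arrays (SD), with a difference of -1.23 (SE 0.38, limma adjusted p = 0.0865). The second was crb, which encodes an apical membrane protein, with a difference of 1.65 (SE 0.54, limma adjusted p = 0.0847). The adaptor gene sav (Salvador) had a difference of -0.37 (limma adjusted p = 0.346).

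All 6 tested genes of the Fat branch, which regulates wts through the Fat cadherin, had differences above 0, with a median of 0.99. Of all 8165 rows 4845 lay below 0. Of these 0 passed in limma and 3 had an unadjusted p under 0.05. They were Dlish at 1.61 (limma adjusted p = 0.0918), fj, a kinase gene that acts on Fat, at 1.12 (limma adjusted p = 0.140), and lft at 1.11 (limma adjusted p = 0.174). The wildtype arrays of Dlish ran from -2.98 to 1.15 and its mutant arrays from 0.50 to 1.55.

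Of 5 tested partners of Mob4 in STRIPAK, 0 passed in limma or at an unadjusted p under 0.05, with a median difference of -0.17. The differences were -0.33 for Slmap, 0.76 for Cka, the fly striatin gene, and -0.58 for Strip. For Strip, with 4 wildtype and 6 mutant arrays, the fit with its dye term runs against the group means, which were 2.13 and 2.41. Of the Yorkie targets, CycE and E2f1 could be tested. CycE, the S phase cyclin gene, rose by 2.43 (SE 0.41, limma adjusted p = 0.0122), a rise known when it was listed. Its call was lost in Cy3 alone, at 1.42 (limma adjusted p = 0.274), where 2 of all 7863 rows passed lower and 0 higher. E2f1, an S phase transcription factor gene, had a difference of 1.39 (limma adjusted p = 0.0612).

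**Figure D4:**
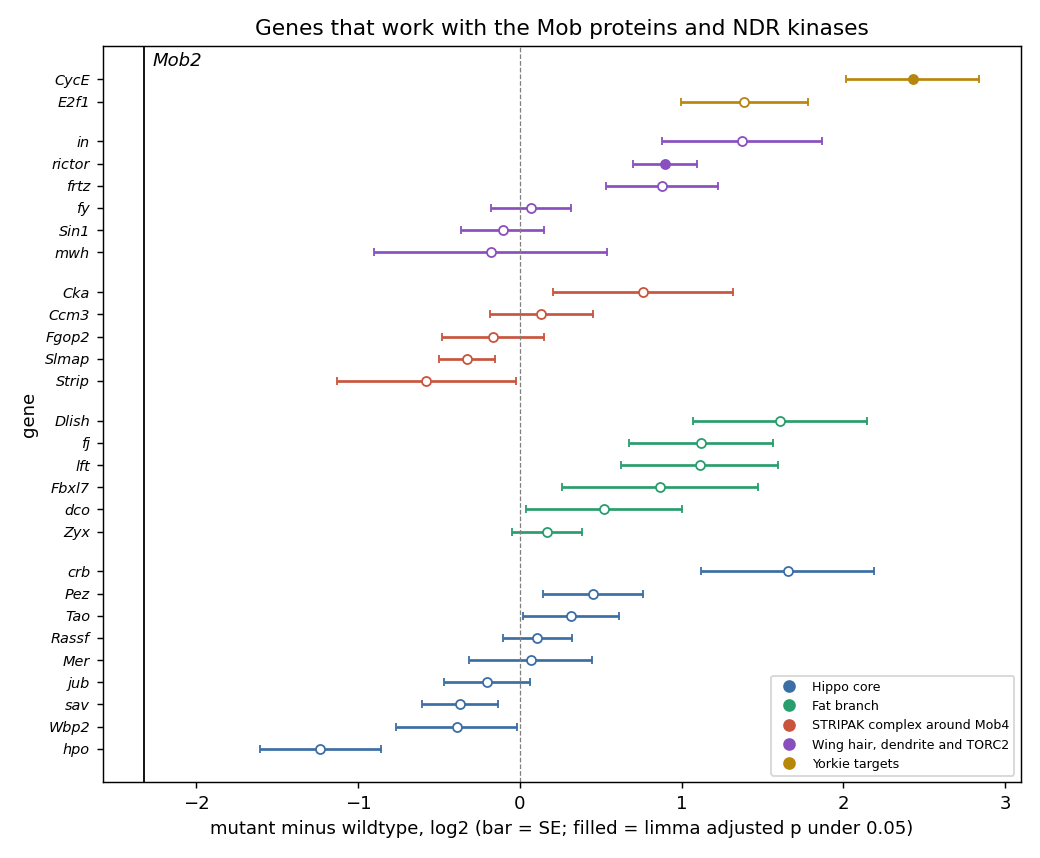
Difference between groups (horizontal axis, mutant minus wildtype, log2) with its SE for the 28 tested genes of the 5 lists (vertical axis, coloured by list); filled points passed in limma and the black line marks Mob2 at -2.32. The filled points, rictor at 0.89 and CycE at 2.43, both lie above 0.

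The genes whose profile over the 12 arrays was nearest to that of Mob2 were found by the root mean square difference of log2 ratios, each gene centred on its own mean, among 5501 named genes with all 12 ratios. The nearest was gogo, an axon guidance receptor gene on 3L, at 0.52, beside a median of 1.34 over the genes ranked. It averaged 0.82 ± 0.56 on wildtype and -2.15 ± 0.59 on mutant arrays (SD, n = 6 each). Next were CG14985 (0.56), Rtf1 (0.57), a gene of the Paf1 transcription elongation complex, CG42268 (0.58) and Hey (0.59), a bHLH repressor gene. Their differences were -2.22, -2.36, -1.89 and -1.39, given as descriptions because likeness to Mob2 chose them. Of the other 6 members Mob3 was nearest, at 1.09. These 5 genes were the 5 nearest also after each array was centred on its median.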

How the data were processed

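The deposited values are log2 ratios of 14569 probes on each of the 12 arrays. The authors' scanning, background correction, normalization and centring are not stated in the labels. Exact 0 values (22.15% to 38.6% of an array) and values beyond 11 in size were set to missing, which removed 0 values of the 7 genes. Signal over background is unknown. Gene names came from the platform's probe table and RefSeq (12657 with 1 symbol, 96 with several, 1816 with none in these tables) and averaged per gene.

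Rows with a ratio on at least 4 of 6 arrays per group (8165) entered a linear model of group and dye (lmFit, eBayes; limma 3.58.1; R 4.3.3). P-values are two-sided, adjusted by Benjamini-Hochberg over all rows, with a threshold of 0.05. The fit was tested on simulated data. The members and lists were chosen with earlier results of these data known. Genes named are the 7 members, pros, in each list those past the threshold and the 3 of smallest p, and the 5 nearest Mob2; others are said to be chosen later or serve as markers. No sequences are shown, and no coordinates, since no build is named for the array.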

Additional observations from a re-analysis of the deposited data

Results flagged for a closer look

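In 14 groups of 6 arrays (7 genes in 2 groups), 2 held an array far from the others, where chance gives about 1 in 20 such groups. For trc in wildtype, replicate 3 stood at 4.44 and the next array at 1.91, a gap of 0.737 of the range. For fry in the prospero mutant, replicate 6 stood at -0.36 and the next array at 0.23, a gap of 0.650 of the range. The critical share for 6 arrays is 0.625. The cause was not tested.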

How the results depend on the processing

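The difference of Mob2 kept its sign in all 23 alternatives and moved by less than its spread between replicates, with -2.11 after centring each array on its median, -2.14 after quantile normalization, -2.32 with the replicate block, and -2.45 to -2.19 without single arrays. Its level over reference ran from -1.01 to -0.87 without single arrays. Over the other settings it ran from -1.21 with cells in Cy5 only to -0.67 with cells in Cy3 only. The number of members past the threshold between groups was 1 and became 2 (Mob2 and wts) after centring or quantile normalization, 0 with cells in Cy3 only, and 1 to 2 without single arrays (2 without wildtype replicate 1). In Cy3 only, 2 of all 7863 rows passed lower and 0 higher, so a call lost there says little about a gene. Without wildtype replicate 1, 340 of 7937 rows passed lower and 209 higher. Members past the threshold over reference, Mob2 included, numbered 5 to 7 without single arrays. Of the 28 pathway genes 2 passed, 1 with the replicate block, 0 in Cy3 only and 1 to 3 without single arrays. Centring turned the split of all calls from 275 lower and 129 higher to 221 and 423, and quantile normalization to 178 and 313. The median difference of all rows moved from -0.13 to 0.08 and 0.09, and 0 members changed sign under these scalings. With the replicate block 82 rows passed lower and 24 higher. Replicate numbers were not taken to pair samples: deviations of same-numbered arrays from the mean of their group and dye correlated at 0.199 to 0.262 for replicates 1 to 3 and at 0.062 to 0.082 for replicates 4 to 6, though all 6 wildtype arrays correlated best with their own number within a dye. The cause of these changes was not tested.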
